A study of Mus musculus with 18 samples.

Results

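Of the 18 libraries in the series, 9 were made from splenic T cells, and they were taken by the names in the sample titles: 5 libraries of tissue patches and 4 libraries of 100 nuclei. The deposited table counts ATAC-seq reads in 27396 regions, of which 4 are mitochondrial. Those 4 were left out, and the 27392 nuclear regions were followed to see which of them kept and which lost reads when the number of captured nuclei fell. All 9 libraries came from frozen spleen sections of wild-type C57BL/6J mice. The sections were tagmented in place, the T cells were marked by immunostaining, and the material was cut out by laser capture microdissection. A patch library pooled 10 cut areas and held about 1000 nuclei, whereas a library of the other kind held 100 nuclei cut out singly. The groups therefore differed both in the number of nuclei and in how the nuclei were cut, and these cannot be told apart. Neither the stained marker nor the count of animals is stated in the labels. The labels describe technical replicates and do not link them to animals. The p-values accordingly measure the spread between libraries, which may be technical, and would be too small for any statement on animals.

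In ATAC-seq a transposase inserts sequencing adapters into DNA that is not wrapped tightly in nucleosomes, so that open promoters and enhancers collect reads. A single nucleus holds few copies of each locus, and a fragment that is lost during capture or amplification cannot be recovered by deeper sequencing. Promoters of widely expressed genes are often rich in CpG and open in many cell types, while regions away from promoters are more often open in some cell types only. T cells are recognised by the chains of the CD3 complex, by the kinases Lck and Zap70 that carry the antigen receptor signal, and by transcription factors such as Tcf7, Lef1, Bcl11b and Satb1.

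Nuclear counts ran from 1722193 to 6136842 in the T patches. They were 692110, 715288, 411994 and 241786 in 100-nuclei libraries 1 to 4, so libraries 3 and 4 were the shallow ones, and the main results are also given without them. The labelled cell type was checked on 2 lists of identity genes. Regions of T cell identity genes took 0.266% ± 0.0482 (SD, n = 5) of nuclear counts in T patches and 0.295% ± 0.0400 (SD, n = 4) at 100 nuclei, against 0.0982% ± 0.0209 (SD, n = 5) in the B cell patches of the same series. Regions of B cell identity genes, the other lymphocytes of the spleen, took 0.0983% ± 0.0102 (SD, n = 5) in T patches and 0.0996% ± 0.0638 (SD, n = 4) at 100 nuclei, against 0.279% ± 0.0385 (SD, n = 5) in B patches. The T libraries thus held more of the T list than of the B list at both capture sizes. The lists were chosen with earlier results of these data known, so this is no independent check.

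At the same nuclear depth, 100 nuclei gave reads in far fewer regions than patches. Each T library was thinned to 241786 nuclear counts, the depth of the shallowest. Reads then fell in 81.3%, 67.3%, 82.6%, 82.4% and 82.1% of nuclear regions in patches 1 to 5. In 100-nuclei libraries 1 to 4 they fell in 37.7%, 37.3%, 14.2% and 12.0%. The groups did not overlap, and the means were 79.1% ± 6.63 (SD, n = 5) and 25.3% ± 14.1 (SD, n = 4). The difference of -53.8 percentage points gave p = 0.0159 in a two-sided exact permutation test, the smallest that the 126 splits allow. Adjusted over the 13 such tests made here it was 0.103 (Benjamini-Hochberg, exact permutation), so it did not pass the correction at 0.05. Without the shallow libraries 3 and 4, and at the depth of the shallower of the remaining pair, the difference was -47.2 points. Thinned to the depth of 100-nuclei library 1, which had reads in 38.8% of regions, the patches had reads in 71.8% to 91.2%. Equal counts need not be equal numbers of distinct fragments, since the handling of duplicates is not stated.

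At 100 nuclei more regions had no reads, and fewer held low counts, than in patches. At the common depth, 18.98% to 35.8% of regions in the patches held 1 to 4 counts. In 100-nuclei libraries 1 to 4 the share was 4.91%, 4.43%, 0.992% and 0.931%. Regions with 5 to 19 counts were 33.9% to 38.3% in patches and 15.87%, 15.999%, 1.86% and 1.46% at 100 nuclei. Regions with 20 counts or more were 12.6% to 14.1% of the total in patches and 16.9%, 16.9%, 11.3% and 9.64% at 100 nuclei, above every patch in libraries 1 and 2 and below every patch in libraries 3 and 4. In libraries 3 and 4 few regions lay between no reads and 20 counts, while in libraries 1 and 2 the regions with 1 to 19 counts still outnumbered those with 20 or more. The top 1% of regions in each library (274 regions) took 12.9%, 12.7%, 21.1% and 22.7% of nuclear counts at 100 nuclei, against 8.15% to 9.90% in patches. The groups did not overlap, and the difference of 8.22 points gave p = 0.0159 in the two-sided exact permutation test (adjusted p = 0.103). Without libraries 3 and 4 it was 3.65 points, less than the 8.22 by more than 1.5 times, so its size rested on the shallow libraries. The 274 regions were 2.58%, 2.60%, 6.96% and 8.31% of the regions read at 100 nuclei and 1.04% to 1.35% in patches. The top 1% share is thus tied to the number of regions read and is not a separate result.

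**Figure D1:**
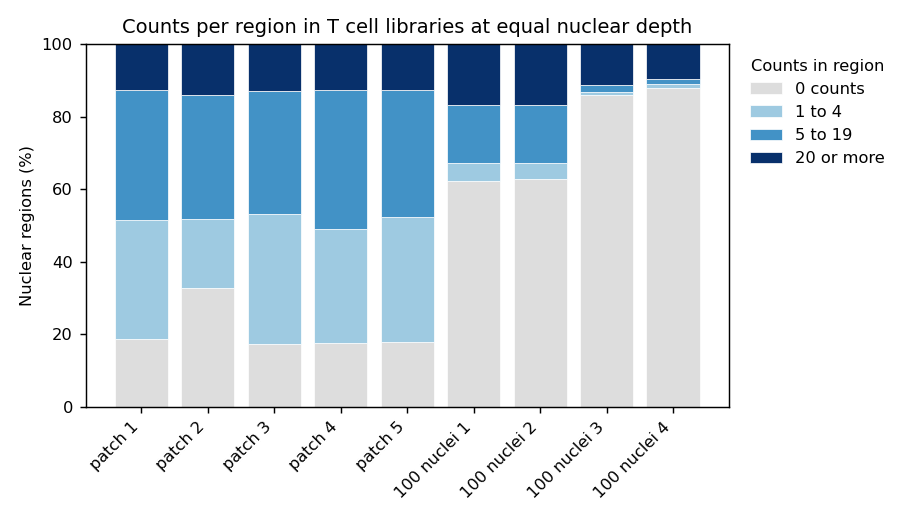
Share of nuclear regions (%) with 0, 1 to 4, 5 to 19 and 20 or more counts in each T cell library, every library thinned to 241786 nuclear counts. Regions without counts are 17.4% to 32.7% in the 5 patches and 62.3%, 62.7%, 85.8% and 88.0% in the 4 libraries of 100 nuclei.

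Among the regions that did have reads, the range of levels from rare to abundant regions was narrower at 100 nuclei than in patches. Abundance was ranked in the 5 B cell patches, which belong to neither T group. From the lowest to the highest abundance quartile, the median count of regions with reads differed 8.32-fold, 4.38-fold, 11.5-fold, 7-fold and 9.48-fold in patches 1 to 5. In 100-nuclei libraries 1 to 4 it differed 2.19-fold, 2.09-fold, 1.43-fold and 1.22-fold. Library 4 had a median of 54 counts in the lowest quartile and 66 in the highest. At equal depth the range was 3.60-fold to 9.50-fold in patches and 2-fold, 2-fold, 1.44-fold and 1.22-fold at 100 nuclei, so the groups did not overlap there either. Across the 27392 regions, the level in a 100-nuclei library followed the mean T patch level with a Spearman rho of 0.568, 0.540, 0.328 and 0.293. Over the regions with reads alone, 10637, 10533, 3937 and 3296 of them, rho was 0.462, 0.446, 0.207 and 0.143, so the level still followed abundance in part, less so in libraries 3 and 4. These are descriptions across regions of the same libraries, which share a region set and differ in depth.

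**Figure D2:**
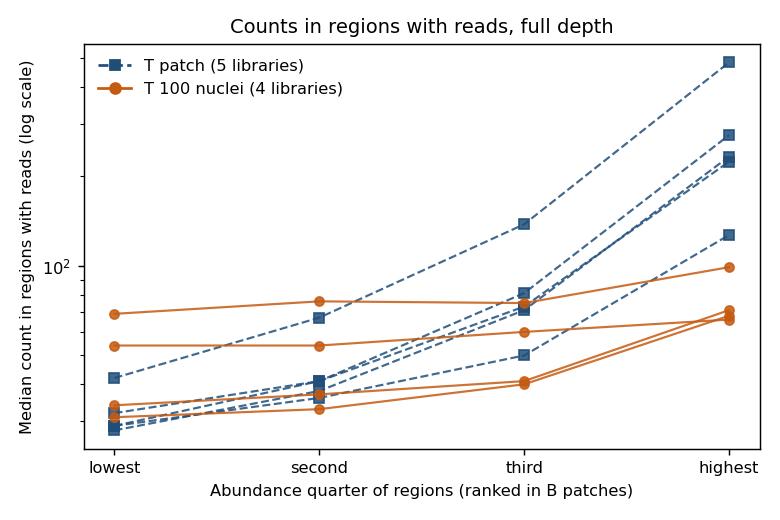
Median count (log scale) of regions with reads in each abundance quartile, at full depth, for 5 T patch and 4 T 100-nuclei libraries, the quartiles being ranked in B patches. The patch lines climb from 28 to 42 counts in the lowest quartile up to 127 to 483 in the highest, while the 100-nuclei lines stay between 31 and 99.

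Which regions were read differed from one 100-nuclei library to the next. Of the 27392 regions, 10891 had reads in 0 of the 4 libraries, a share of 39.8%, and 658 had reads in all 4, a share of 2.4%. Between these lay 8343 regions read in 1 library, 5072 read in 2 and 2428 read in 3. One library covered 25.9% of regions on average at full depth, and the union of 2, 3 and 4 libraries covered 41.9%, 52.6% and 60.2%. The counts of all 4, summed and thinned to 241786, still covered 56.6% of regions, more than any single 100-nuclei library and less than every patch at that depth. Of the regions read in 100-nuclei library 1, 57.3% were also read in library 2, which had reads in 38.5% of all regions. Of those in library 3, 23.7% were read in library 4, against 12.0% of all regions. Among T patches, 17732 regions were read in all 5, and 13138 of these were read in at least 1 library of 100 nuclei.

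Regions read more often at 100 nuclei were wider, nearer to gene ends and more abundant. From 0 to 4 of the 4 libraries with reads, the median width went from 138 to 682 bases, with 200, 346 and 518.5 bases for regions read in 1, 2 and 3. The share within 1 kb of either end of an annotated gene went from 39.0% to 81.2% over the same steps. The median of the mean T patch level went from 9.10 to 144.5 CPM (nuclear counts scaled to a common library total of 1e6). Width, position and abundance moved together, since the highest abundance quartile had a median width of 515 bases and 76.1% of its regions at gene ends, against 120 bases and 34.1% in the lowest.

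Taken by width at full depth, the narrowest quartile of regions (108 to 128 bases) had reads in 15.7%, 15.7%, 4.56% and 4.21% of cases in 100-nuclei libraries 1 to 4. The widest quartile (357 to 1967 bases) had reads in 75.2%, 72.7%, 32.4% and 26.8%. In the patches the corresponding shares were 53.6% to 90.4% for the narrowest and 96.9% to 99.96% for the widest. The order narrow to wide held in every T library of both groups. By abundance, 17.3%, 17.9%, 5.37% and 4.89% of the lowest quartile had reads at 100 nuclei, and 74.7%, 72.9%, 32.6% and 26.7% of the highest. Patches had reads in 57.9% to 91.9% of the lowest quartile and 95.7% to 99.8% of the highest.

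Position followed the same direction. Regions at gene ends had reads in 48.7%, 47.9%, 18.6% and 15.0% of cases in 100-nuclei libraries 1 to 4. Regions inside genes but away from their ends had reads in 30.8%, 30.6%, 11.02% and 9.74%, and regions 1 to 50 kb outside genes in 25.2%, 25.9%, 8.62% and 8.02%. Farther than 50 kb from any gene the shares were 14.7%, 16.3%, 3.41% and 3.23%. Among regions that were both in the widest and in the most abundant quartile, the gap by position was smaller: 29.7% to 81.2% at gene ends (4506 regions), 28.9% to 74.3% inside genes (712 regions) and 27.1% to 66.7% outside them (225 regions). In the lowest abundance quartile gene ends had no lead, with 3.64% to 17.6% read against 6.00% to 19.9% inside genes. Over all regions the patches had the same order by position as the 100-nuclei libraries. Their shares were 79.3% to 98.4% at gene ends, 70.7% to 95.4% inside genes, 65.9% to 93.0% at 1 to 50 kb and 60.8% to 87.1% beyond.

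Although these classes lost regions unequally, their shares of the counts hardly moved. The widest quartile took 63.4% ± 2.67 (SD, n = 4) of nuclear counts at 100 nuclei and 63.9% ± 2.92 (SD, n = 5) in patches, a difference of -0.520 points (two-sided exact permutation p = 0.762). Regions at gene ends took 70.4% ± 2.48 (SD, n = 4) and 71.6% ± 2.41 (SD, n = 5), a difference of -1.21 points (exact permutation p = 0.492). The most abundant quartile took 63.9% in each group, with SDs of 2.83 (n = 4) and 3.14 (n = 5) (exact permutation p = 1). Without 100-nuclei libraries 3 and 4 these 3 differences were 1.38, 0.640 and 2.02 points, and the first 2 thus changed sign. In each case the groups overlapped and the difference was smaller than the spread between libraries, and the adjusted p was 1 (exact permutation). Counting each region once per library in place of its reads, at full depth, gave another picture. The widest quartile then made up 47.2% to 56.4% of the regions read at 100 nuclei and 25.9% to 32.7% in patches, and the 24.0-point difference had an unadjusted exact permutation p of 0.0159. Regions at gene ends made up 63.8% to 66.2% of regions read against 52.3% to 54.8%, a difference of 11.5 points, also at an unadjusted exact permutation p of 0.0159. The patches had reads in 74.2% to 96.4% of all regions at full depth. With so many regions read, the share of a class is held near its share of all regions. Both differences thus follow in part from the fall in regions read and are no separate test. The panels by class show this pair of measures side by side, with lines far apart for regions read and close together for counts.

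**Figure D3:**
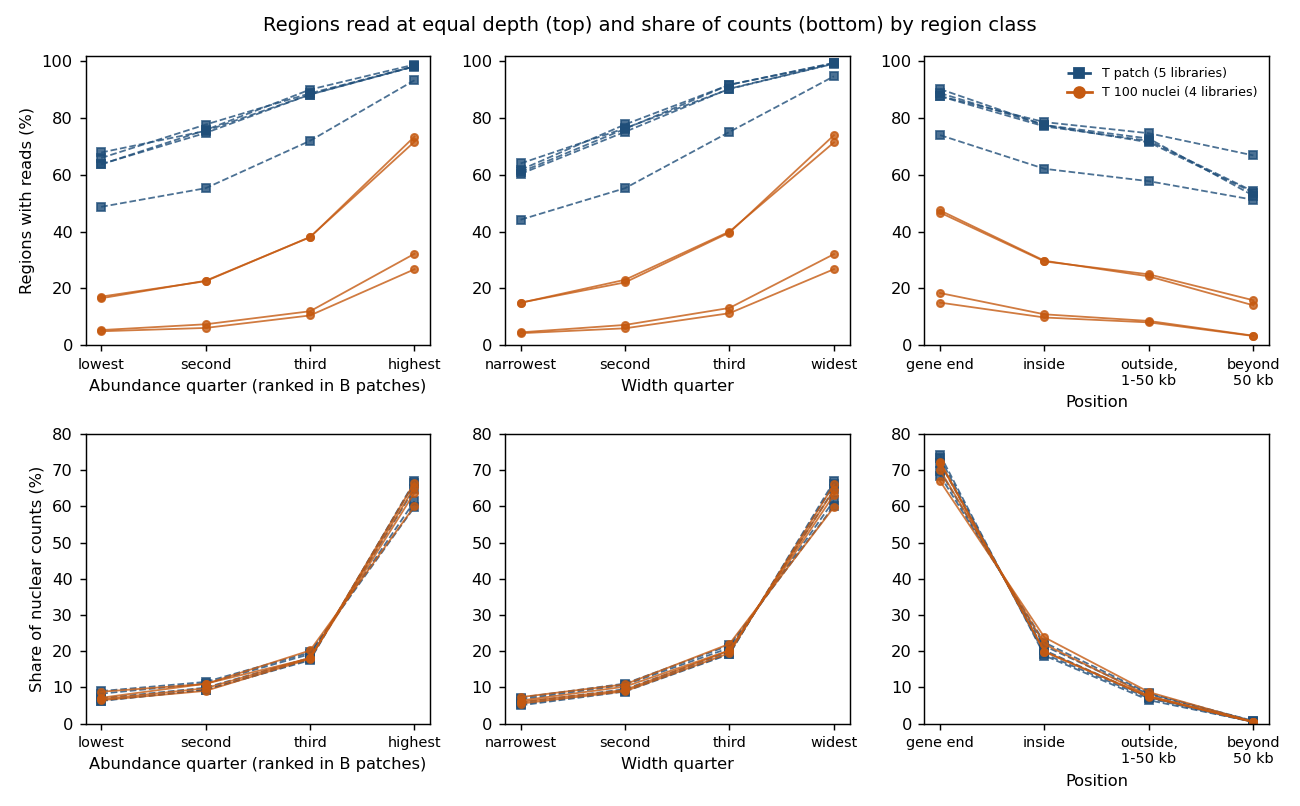
Regions with reads (%) after thinning to equal nuclear depth (top row) and share of nuclear counts (%) at full depth (bottom row) by abundance quartile, width quartile and position, 1 line per T library, with patches dashed and 100 nuclei solid. The 100-nuclei lines lie below all patch lines in the top row and close to them in the bottom row.

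Regions at promoters were followed further with the RefSeq promoter sequences, which run from 250 bases before a gene's start to 50 after it (build GRCm38.p6, the coordinates of mm10). A promoter window was overlapped by 8340 regions. The more of the 4 libraries of 100 nuclei had reads in such a region, the higher was the GC content of its window: the median went from 60.3% for 0 libraries to 61.3%, 62.7%, 64.7% and 65.3% for 1 to 4, and the median number of CpGs in the window was 20, 22, 24, 25 and 26. The share of windows with a GC box (GGGCGG on either strand, the core site of Sp1 family factors) went from 60.6% to 82.9%, and 35.7% of all 32851 windows in the table held one. The share with a CCAAT box (CCAAT on either strand, bound by NF-Y) went from 30.4% to 50.2%, against 37.4% of all windows. Abundance moved along with both. Within the highest abundance quartile the GC box share was 73.7% for 0 libraries and 83.3% for 4, and the CCAAT share 34.2% and 51.2%. The ETS core (CCGGAAG on either strand) stood at 19.7% for 0 libraries and 16.9% for 4. Weighted by counts, the mean GC of promoter windows was 64.3% in both groups (difference of 0.0208 points, two-sided exact permutation p = 0.857).

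Single promoters could depart from this trend, and 5 promoters are shown that were picked after their values were seen. They stand for no wider pattern. The 250 bases upstream of the start are printed 5′ to 3′ on the gene's strand, with every CpG in capitals. Irak4, Dut and Hprt had reads in 0 of 4 libraries of 100 nuclei, while Lck and Themis had reads in 3 of 4. Their places are chr15:94543410-94543659 (plus strand) for Irak4, chr2:125247265-125247514 (plus) for Dut, chrX:52987828-52988077 (plus) for Hprt, chr4:129573642-129573891 (minus) for Lck and chr10:28668145-28668394 (plus) for Themis.
Irak4: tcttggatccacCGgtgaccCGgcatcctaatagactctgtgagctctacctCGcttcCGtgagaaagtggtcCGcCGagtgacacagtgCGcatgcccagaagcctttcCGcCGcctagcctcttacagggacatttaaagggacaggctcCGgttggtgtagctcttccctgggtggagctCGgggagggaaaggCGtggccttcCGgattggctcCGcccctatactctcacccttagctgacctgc
Dut: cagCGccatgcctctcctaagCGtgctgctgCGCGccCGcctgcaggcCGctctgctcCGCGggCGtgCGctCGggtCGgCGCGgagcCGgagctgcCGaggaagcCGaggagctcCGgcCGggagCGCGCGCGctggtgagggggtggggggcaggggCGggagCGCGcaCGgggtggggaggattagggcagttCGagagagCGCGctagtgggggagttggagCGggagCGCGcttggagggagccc
Hprt: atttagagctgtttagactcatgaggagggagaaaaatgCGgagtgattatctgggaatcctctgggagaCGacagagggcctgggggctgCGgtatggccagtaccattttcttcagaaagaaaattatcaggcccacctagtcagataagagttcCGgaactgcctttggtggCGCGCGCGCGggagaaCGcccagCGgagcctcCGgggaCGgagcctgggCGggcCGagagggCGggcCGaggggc
Lck: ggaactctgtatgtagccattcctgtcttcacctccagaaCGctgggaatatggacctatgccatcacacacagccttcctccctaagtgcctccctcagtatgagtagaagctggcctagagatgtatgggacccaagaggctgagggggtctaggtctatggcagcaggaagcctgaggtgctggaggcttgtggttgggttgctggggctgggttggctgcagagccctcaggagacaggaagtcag
Themis: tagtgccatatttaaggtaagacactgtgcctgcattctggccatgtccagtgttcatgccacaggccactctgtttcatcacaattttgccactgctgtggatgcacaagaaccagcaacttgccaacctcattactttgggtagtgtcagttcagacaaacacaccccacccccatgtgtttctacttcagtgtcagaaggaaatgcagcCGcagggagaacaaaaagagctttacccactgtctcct
The stretches of Irak4, Dut and Hprt hold 14, 33 and 17 CpGs, and those of Lck and Themis hold 1 each. A GC box occurs in the first 3 and in neither of the T cell promoters.

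Lck, the kinase that starts antigen receptor signalling, had 207, 308, 503, 104 and 276 counts at chr4:129573524-129573815 in patches 1 to 5. At 100 nuclei it had 124, 61, 69 and 0. Themis, an adaptor needed for T cell development in the thymus, had 348, 256, 371, 290 and 263 counts at chr10:28668242-28668652 in patches and 50, 65, 0 and 41 at 100 nuclei. Both regions were thus present in 3 of the 4 small libraries, but not in the same 3. Irak4, a kinase of Toll-like and interleukin-1 receptor signalling, had 532, 369, 883, 448 and 407 counts at chr15:94543170-94543989 in patches and none in any of the 4. Dut, which keeps uracil out of DNA, had 312, 348, 929, 438 and 449 counts at chr2:125247174-125247797 in patches and again none. Hprt, an enzyme of purine salvage often used as a reference gene, had 82, 123, 259, 128 and 158 counts at chrX:52987911-52988283 in patches and none at 100 nuclei.

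Tested region by region with edgeR (quasi-likelihood test, TMM scaling, Benjamini-Hochberg adjusted p under 0.05), 4553 of 19065 tested regions were lower at 100 nuclei, a share of 23.9%, and 0 were higher, a share of 0%. On simulated counts at the fitted spread, the test recovered none of the increases put in at 100 nuclei. The absence of higher calls is therefore no sign that no region was higher. At an unadjusted p under 0.05 the edgeR counts were 5064 lower and 2 higher, and DESeq2 at its adjusted threshold gave 5094 lower and 7 higher. The levels of the groups did not overlap in 21.8% of tested regions with 100 nuclei lower and in 0.273% (52 regions) with 100 nuclei higher. Of the 4553 called regions, 4158 had no read in any of the 4 libraries, 371 had reads in 1 and 24 in 2 or more. All 4158 tested regions without reads at 100 nuclei were called. They passed the filter on low counts through the patches alone, so they had to differ, and their calls and those of the genes and lists below that rest on them describe the loss of reads and add no test of it. The 395 calls with reads in at least 1 small library are the remainder. Another 6733 such regions had too few counts overall to be tested. TMM scaling put the median log2 fold change of all tested regions at -1.36 and scaling by library size alone at -0.63, with 4439 lower and 9 higher calls in the latter. The number of calls changed with the libraries used, and so did the number of tested regions, since the filter was run anew each time. Without patch 1, 3, 4 or 5, calls were 1866 of 14890 tested, 1814 of 14856, 1864 of 14901 and 1869 of 14947. Without 100-nuclei library 1 or 2 they were 9013 of 23011 and 8948 of 22989. Without 100-nuclei libraries 3 and 4 together they were 3198 of 25901.

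The most abundant regions without any read at 100 nuclei all lay at gene ends. By mean T patch level the first 8 belonged to Irak4, Dut, Mios, Eef2kmt, Arl15, Cebpg, Cdiptos and Desi2. Irak4 stood at 159.5 CPM ± 37.6 (SD, n = 5) in patches, the 96.8th percentile of regions. Set against a floor of 3 counts over the 4 summed libraries (1.46 CPM), its level was at least 110-fold lower at 100 nuclei, and that of Dut at least 100.1-fold lower. Such a floor covers counting error only. Mios, a subunit of the GATOR2 complex that signals amino acids to mTORC1, had 318, 356, 487, 291 and 250 counts in patches at chr6:8209016-8209639. Cebpg, a leucine zipper transcription factor, had 398, 183, 691, 268 and 368 at chr7:35056040-35056794. All 8 had an edgeR adjusted p of 0.00569, which is the smallest in the table and is shared by many regions with 0 reads at 100 nuclei. They were chosen by these values, so the test adds no support.

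The least abundant regions with reads in all 4 libraries of 100 nuclei were a different set. By the nearest end of a gene's outermost span they were assigned to Pole2, Csk, Crk, Bex6, Adora3, Nfatc1, Nsmce1 and Hexa, and those of Crk and Hexa lay within 1 kb of such an end. The region assigned to Pole2 overlaps a promoter window of Klhdc1, at an inner transcript start of that gene, so the assignment to Pole2 is uncertain. Csk, the kinase that restrains Lck, had 58, 4, 117, 60 and 26 counts in patches at chr9:57629311-57629480 and 13, 65, 20 and 27 at 100 nuclei. Hexa, a lysosomal hexosaminidase subunit, had 32, 22, 172, 152 and 83 counts at chr9:59539519-59539891 and 67, 41, 194 and 120 at 100 nuclei. The region at chr12:69241742-69241906 had 49, 0, 89, 33 and 44 counts in patches (Pole2 by nearest end) and 8, 5, 61 and 103 at 100 nuclei. As counts these values overlap between the groups although the patches were sequenced deeper. Scaled to nuclear totals, the Hexa region stood at 10.5 to 51.1 CPM in patches and 57.3 to 496 CPM at 100 nuclei, without overlap. The Csk region and the one at chr12 still overlapped in CPM. All were chosen for low patch levels and reads in all 4 small libraries, so these levels are no test. None of the 8 passed the test. The log2 fold change for Hexa, 1.90 ± 1.06 (SE), had an edgeR adjusted p of 0.331.

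T cell markers were lost in part and in different combinations in each small library. Of 24 fixed T cell genes, 23 had an assigned region, taken as the one nearest a gene end, and Cd4 had none. These 23 were read in 23, 19, 23, 21 and 22 cases in patches 1 to 5. At 100 nuclei they were read in 15, 14, 6 and 5 cases. None was read in all 4 small libraries, 6 were read in 3, 9 in 2, 4 in 1 and 4 in none. Over all nuclear regions, the same libraries had reads in 38.8%, 38.5%, 14.4% and 12.0%. Of all nuclear regions, 39.8% were read in none of the 4 and 2.4% in all 4, so the markers were not lost more often than regions at large. Of the 23, 19 had enough counts for the edgeR test and 0 were called, against 23.9% of all tested regions. The 4 markers left untested, Cd247, Ets1, Gata3 and Skap1, were the same 4 that had no reads in any small library. Over all regions, 4158 of the 4553 calls had no reads at 100 nuclei. The absence of calls among tested markers therefore does not show that markers were spared.

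Among the receptor genes, Cd3g, a chain of the CD3 complex, had 205, 127, 699, 159 and 284 counts in patches and 108, 0, 0 and 0 at 100 nuclei. Cd3e, another chain, had 85, 64, 31, 51 and 17 counts at its region nearest a gene end and then 0, 0, 73 and 0. The only small library with reads in that region was not the one of Cd3g. Summed over its 2 assigned regions, Cd3e had 0, 128, 131 and 0 counts at 100 nuclei. Cd8a, the alpha chain of the CD8 coreceptor, had 64, 129, 212, 144 and 239 counts and 37, 16, 0 and 0. Thy1, a surface glycoprotein that defines T cells in the mouse, lost its region altogether: 109, 182, 257, 194 and 226 counts in patches at chr9:44043247-44043494 became 0 in all 4 libraries, at least 42.8-fold lower against the floor. Thy1 was not on the fixed marker list and was named after its values were seen.

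Among signalling genes, Zap70, the kinase that binds the phosphorylated CD3 chains, had 166, 0, 361, 103 and 151 counts in patches and 0, 89, 82 and 0 at 100 nuclei. Lat, the adaptor phosphorylated by Zap70, had 240, 20, 654, 150 and 225 counts and 29, 41, 0 and 107. For both genes at least 1 small library was at 0, and the small libraries with reads had 29 to 107 counts. Ccr7, the chemokine receptor that guides T cells to the T zone, had 477, 244, 750, 228 and 472 counts and 97, 242, 54 and 0.

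Among transcription factors, Satb1, a chromatin organiser of T cells, had 443, 234, 846, 473 and 561 counts in patches and 59, 181, 0 and 6 at 100 nuclei. Bcl11b, which fixes T lineage commitment, had 164, 16, 505, 376 and 322 counts and 15, 0, 0 and 0, with a log2 fold change of -4.28 ± 1.91 (SE) that did not pass (edgeR adjusted p = 0.169). Tcf7, the factor TCF-1, had 4 assigned regions. The one at chr11:52275521-52275654 had 128, 117, 325, 279 and 215 counts in patches and 107, 34, 150 and 128 at 100 nuclei, and it was 1 of 2 T cell identity regions read in all 4 small libraries. The Tcf7 region nearest a gene end had 103, 57, 426, 104 and 146 counts and 0, 54, 0 and 0. Regions of the same gene were thus read in different libraries. Summed over its regions, a T cell identity gene was more often seen: 24 of the 26 genes had reads in at least 1 small library and 4 (Il7r, Lef1, Tcf7 and Ubash3a) had reads in all 4, while Gata3 and Thy1 had none.

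**Figure D4:**
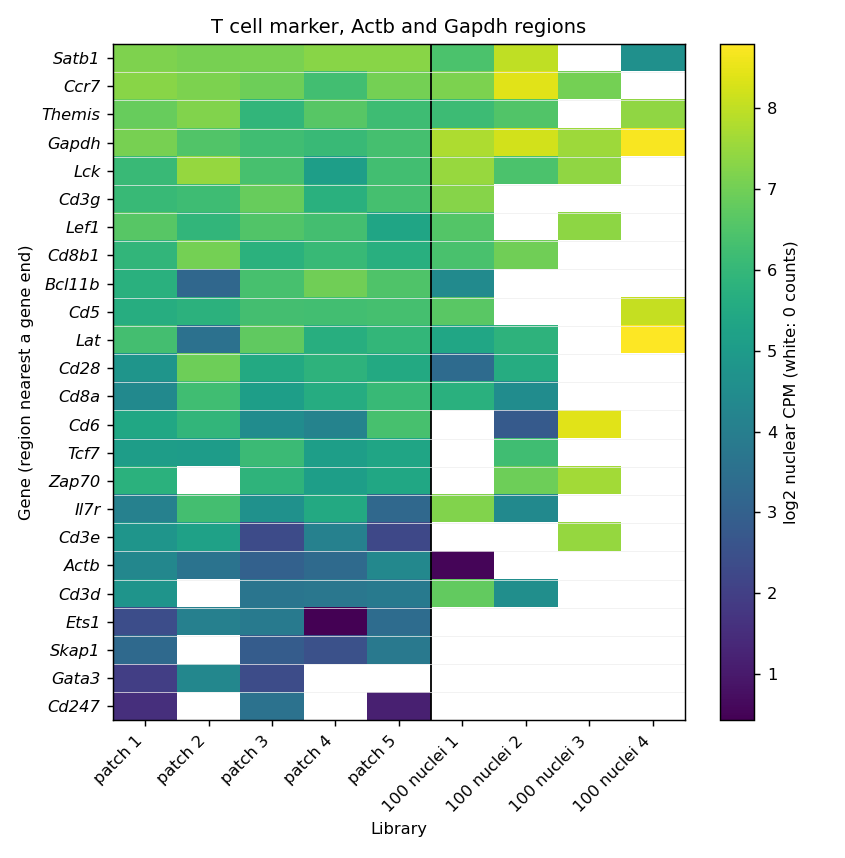
Level (log2 CPM of nuclear counts, colour) of the region nearest a gene end for 22 of the 23 T cell markers, Actb and Gapdh in each T library, ordered by mean T patch level, with white for 0 counts. Patches fill nearly all cells, whereas each 100-nuclei library leaves many marker rows white, libraries 3 and 4 the most.

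The housekeeping gene Gapdh, a glycolytic enzyme, had reads in every T library, with 413, 159, 461, 203 and 288 counts in patches and 149, 211, 78 and 100 at 100 nuclei. Actb, beta-actin, had 8 assigned regions, 6 of them read at 100 nuclei, with summed counts of 2066, 915, 4224, 1538 and 2103 in patches and 383, 282, 254 and 218 at 100 nuclei. It was 1 of 6 housekeeping genes, of 25 with a region, that had reads in all 4 small libraries. Its region nearest a gene end, the one drawn in the heat map, held 60, 21, 50, 30 and 72 counts and 1, 0, 0 and 0 and was lower at 100 nuclei (edgeR adjusted p = 0.00618). A gene whose drawn region was lost could thus keep reads elsewhere.

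By gene list, the share of regions read in at least 1 small library was 60.2% over all nuclear regions. It was 81.8% for T cell identity (54 of 66 regions), 84.3% for T cell receptor signalling (70 of 83), 80% for lymphocyte homing (40 of 50) and 85.7% for housekeeping genes (42 of 49). It was 47.1% for B cell identity (32 of 68), 55.9% for T cell costimulation and checkpoints (19 of 34) and 63.6% for T cell subset and effector genes (21 of 33). The median of the mean T patch level was 31.7, 28.4, 33.5 and 55.3 CPM for the first 4 lists and 7.55, 13.4 and 19.5 CPM for the last 3, against 18.6 CPM over all regions. The order of levels was not the order of shares throughout: cytokine receptors, at 29.7 CPM, were read in 70.7% of regions, fewer than receptor signalling at 28.4 CPM. The part of abundance in the difference between lists was not tested.

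In the region-wise test, 10 of 58 tested T cell identity regions were lower at 100 nuclei (17.2%), among them regions of Bcl11b, Cd8b1 and Satb1 that had no read in any small library. For T cell receptor signalling it was 13 of 77 (16.9%), with regions of Ptprc, which encodes CD45, and of Vav1, an exchange factor, among them. For housekeeping genes it was 6 of 47 (12.8%). For B cell identity it was 9 of 26 (34.6%), with regions of Bach2, a repressor of plasma cell fate, and Cr2, complement receptor CD21. None of any list was called higher, which the test could hardly do, and all these counts stand beside 23.9% lower over all tested regions. The list medians of the log2 fold change were -1.34 for T cell identity, -1.24 for receptor signalling, -1.37 for housekeeping and -2.02 for B cell identity, with -1.36 over all tested regions.

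Reads at B cell genes in the T libraries varied most in the shallow library 4. Its B identity share was 0.00951% of counts, from 2 of 68 regions, whereas libraries 1 to 3 stood at 0.147%, 0.0993% and 0.142%. Patches stood at 0.0836% to 0.110%, with 32 to 63 regions read. Over the groups the B identity share did not differ (difference of 0.00127 points, two-sided exact permutation p = 1), nor did the T identity share (0.0295 points, exact permutation p = 0.365), beyond the spread between libraries. Pax5, the factor that sets B identity, had a summed count of 0 in all 4 small libraries against 109, 45, 45, 97 and 42 in patches. Whether B cells were present in the captures was not tested. In the other cell type lists the regions read in at least 1 small library were 2 of 8 for macrophages and monocytes (25%), 6 of 15 for dendritic cells (40%), 7 of 12 for NK cells (58.3%), 5 of 7 for erythroid cells (71.4%) and 4 of 7 for stroma and endothelium (57.1%), beside 60.2% over all regions. No region was assigned to a neutrophil gene. In bulk libraries such as these, fewer cells of a type and less open DNA per cell cannot be told apart.

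The B cell libraries of the series served as a comparison for the size of the loss. B cells had reads in 80.1% ± 6.48 (SD, n = 5) of regions in patches and 33.3% ± 4.99 (SD, n = 4) at 100 nuclei at the common depth, a difference of -46.8 points beside -53.8 in T cells. The difference between these effects, -7.03 points, did not pass (two-sided exact permutation of the cell type labels within capture size, 17640 arrangements, p = 0.429). It was 5.16 points, of opposite sign, without T 100-nuclei libraries 3 and 4. For the top 1% share the effects were 8.22 points in T cells and 3.93 in B cells (exact permutation p = 0.231). The effects on the shares of the widest quartile, of gene ends and of the most abundant quartile gave exact permutation p-values of 0.907, 0.555 and 0.745.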

How the data were processed

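ATAC-seq was measured in 9 T cell libraries, and 9 B cell libraries served for ranking and comparison. The authors deposited raw whole-number counts per region. The build was mm10, and the tools were MACS2 2.2.7.1, Bowtie2 2.4.5 and R 4.1.0, with Trimmomatic 0.36, SAMtools 1.14, Picard, bcl2fastq 2.20 and deepTools 3.5.2, per the submitters' processing notes. What each did, the region calling, the handling of duplicates and a transposase offset are not stated there. Without molecular identifiers, intervals and floors cover counting error only. Coordinates are as the table gives them, and whether starts count from 0 or 1 is not known here.

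Regions were assigned to the gene with the nearest end within 50 kb (GRCm38.p6, 95.1% of regions). CPM were scaled to nuclear totals. Thinning to equal depth used the exact expectation of sampling without replacement. Levels per library were compared by two-sided exact permutation tests (SciPy 1.17.1, which doubles the smaller tail). Counts were tested with edgeR 4.0.16 in R 4.3.3 after filterByExpr with a minimum count of 10, and each SE was taken as log2 fold change over root F. DESeq2 1.42.0, with poscounts size factors because most regions hold zeros, was an alternative. The others were scaling, filters, thinned patches, a joint fit, a replicate block and each library left out. The members and the gene lists were chosen with earlier results of these data known. Named regions were fixed T cell markers, the 8 most abundant regions read in 0 of 4 small libraries, the 8 least abundant read in all 4, the 8 lowest and highest fold changes among called regions that did not overlap (no region was higher) and up to 3 per list by smallest p. The text prints some of these, picked after their values were seen, and a few named by the rule are not reported here. The test was tried on simulated counts: at the fitted spread it recovered none of the changes put in, and at a much smaller spread nearly all but the smallest ones. A region that was not called is therefore no sign of equal levels.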

Additional observations from a re-analysis of the deposited data

Results flagged for a closer look

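T patch 2 stood apart from the other patches in the share of regions read at equal nuclear depth, at 67.3% against 81.3%, 82.6%, 82.4% and 82.1%. It was also the shallowest patch, with 1722193 nuclear counts. Patch 2 of the B cells stood lower in the same way, at 68.9% against 80.9% to 85.4% in the other B patches, and at full depth at 75.4% against 90.1% to 98.1%. What the libraries numbered 2 share is not stated in the labels. Without T patch 2 the difference between 100 nuclei and patches was -56.8 points in place of -53.8. The gap was picked out from 16 groups looked at here, and neither chance nor a cause was tested.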

How the results depend on the processing

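The lower share of regions read at 100 nuclei and the higher share of counts in the top 1% kept their direction in all alternatives run, with -57.95 to -50.1 points and 6.44 to 9.79 points as each library was left out (unadjusted exact permutation p up to 0.0357). Of the shares that did not pass, those of gene ends and T cell identity kept their sign as each single library was left out, and the others did not. Without 100-nuclei libraries 3 and 4 together, the gene end share also changed sign (0.640 points), as did the widest quartile (1.38 points), and the most abundant quartile differed by 2.02 points. Leaving out each library gave -1.46 to 0.676 points for the widest quartile, -1.02 to 1.29 for the most abundant quartile, -0.0146 to 0.0313 for B cell identity and -0.0350 to 0.0834 for promoter GC. The widest 10% of regions differed by 0.00186 points. With each region counted once, the differences were 24.0 points for the widest quartile, 11.5 for gene ends, 24.1 for the most abundant quartile, 0.113 for T cell identity and -0.0842 for B cell identity. These were taken at full depth and are tied to the number of regions read. Without T 100-nuclei libraries 3 and 4, the T minus B differences were 5.16 points for regions read, -0.272 for the top 1%, 1.65 for the widest quartile and 0.663 for gene ends. Called regions numbered 4553. They were 7331 with no filter, 7457 with counts in 3 of 9 libraries and 8823 in a joint fit of 18 libraries (more regions tested), and 1315 with thinned patches (fewer tested). As each library was left out they were 1814 to 9013, with 14856 to 23189 regions tested. Among the calls, 395 had counts in at least 1 small library, an alternative chosen after the data were seen, like the promoter windows for gene ends (-0.635 points) and the summed libraries.

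Whether replicate numbers pair the libraries is not stated in the labels. Deviations of same-numbered patches and small libraries correlated at 0.0006 to 0.0289, and those with unlike numbers at -0.0301 to 0.0146. Each small library had no reads in 61.2% to 88.0% of regions, so this check could hardly show a pairing and does not exclude it. With the replicate block edgeR called 0 regions (4058 at an unadjusted p under 0.05, all lower), and the blocked difference in regions read was -53.1 points, where the smallest exact permutation p is 0.125. The depth of the small libraries limits single regions: 3 counts amount to 4.19 to 12.4 CPM in them.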

Other observations

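Neighbouring regions were not read together more often at the shortest distance. For 4548 pairs of neighbouring regions less than 200 bases apart, the region with the higher coordinate had reads in 35.1%, 36.2%, 11.7% and 8.57% of cases in 100-nuclei libraries 1 to 4 when its neighbour had reads. When the neighbour had none, the shares were 36.3%, 34.2%, 12.7% and 10.3%. For 4503 pairs at 1 to 10 kb they were 49.6%, 48.7%, 18.8% and 15.98% beside a region with reads, and 40.1%, 40.3%, 15.6% and 13.8% beside one without. How neighbouring regions were split is not stated in the labels.

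On the X chromosome 30.0%, 28.1%, 10.1% and 8.04% of regions had reads in 100-nuclei libraries 1 to 4, while the highest shares on any chromosome were 43.4%, 45.2%, 18.1% and 14.1%. In T patches the X shares were 69.7% to 95.7%. These shares were not tested.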
